A study of Homo sapiens with 6 samples.

Results

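The 56 genes described here encode machinery of mitosis: kinases and cyclins that start it, kinetochore, spindle checkpoint, kinesin motors, and spindle and cytokinesis proteins. They also encode CDC20, UBE2C and securin, which act with the anaphase-promoting complex but are not its core subunits, and proteins that shape chromosomes. They were chosen by name, with earlier results of these data known, and all 56 were found among the 23459 genes of the deposited table. The cells were Raji, an established human Burkitt's lymphoma line derived from the germinal centre. OBF1 shRNA cells carried the lentiviral hairpin OBF1sh1 against POU2AF1, the gene of the B cell coactivator OBF1, and control shRNA cells carried the non-target hairpin SHC002. In both groups the pLKO.1 vector was delivered by 5 days of infection, and carrying cells were selected for 7 days with 3 μg/ml puromycin. Poly(A) RNA of 3 libraries per group was sequenced. OBF1 was lowered by a single hairpin in a selected pool, and the labels leave it unsaid if replicate libraries are separate cultures, so a p-value measures only how far these libraries spread, possibly for technical reasons.

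Mitotic genes are transcribed late in the cell cycle. In resting and early phases many of them are held down by the DREAM complex, which reaches their promoters through a short element called CHR, and later B-MYB and FOXM1 act on the same MuvB core, often beside CCAAT boxes bound by NF-Y. CDK1 with its cyclins then drives entry into mitosis, kinetochores attach chromosomes to the spindle, the checkpoint holds back anaphase until all are attached, and the anaphase-promoting complex marks cyclin B and securin for destruction. Germinal centre B cells divide rapidly and express much of this machinery.

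The promoters of these genes share short elements that the choice of genes did not use. RefSeq gives a promoter window on GRCh38.p14, 250 bases before to 50 after the start of the gene, for 47 of the 56 genes. Each gene was searched in a single window, so promoters at other starts of a gene were not read. A CHR, searched as TTTGAA and also as TTCGAA on both strands, was present in 35 of the 47 windows (74.5%), against 11.8% of the windows of tested genes and 16.6% of all 27305 windows. A CCAAT box, searched as CCAAT on both strands, was present in 34 of 47 (72.3%), against 38.4% of tested genes and 35.7% of all windows. Both elements stood together in 26 of 47 windows (55.3%), against 5.24% of those of tested genes and 6.58% of all. An E2F element, searched on both strands as the run TTCCCGC, as the run TTGGCGC, as the run TTCGCGC and as the run TTGCCGC, was in 16 of 47 (34.0%), against 21.0% of tested genes and 13.1% of all windows. The octamer of the Oct factors, searched as ATGCAAAT on both strands, was in 0 of 47 windows, against 1.33% of tested genes and 1.80% of all windows, which says only that these letters are not in these windows.

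The 120 bases before the start are printed on the strand of the gene, 5′ to 3′, for 5 genes that were lower in OBF1 shRNA cells and the 3 that were higher (BUB1, ANLN and CENPK). Of the lower ones, PLK1, CKS2, HMMR and CCNB2 were picked because they hold both elements and CDC25C because its searched window holds neither. The choice shows layouts and says nothing of how the elements go with direction, or of other starts of CDC25C. Capitals mark CHR and CCAAT matches on either strand, CDC25C has none, and adjoining or overlapping matches run together, as in HMMR. On GRCh38.p14 the windows lie at chr16:23678769-23678888 (PLK1, plus strand), chr9:89311075-89311194 (CKS2, plus strand), chr5:163460512-163460631 (HMMR, plus strand), chr15:59105026-59105145 (CCNB2, plus strand), chr5:138338356-138338475 (CDC25C, minus strand), chr2:110678064-110678183 (BUB1, minus strand), chr7:36389742-36389861 (ANLN, plus strand), chr5:65563169-65563288 (CENPK, minus strand).
PLK1: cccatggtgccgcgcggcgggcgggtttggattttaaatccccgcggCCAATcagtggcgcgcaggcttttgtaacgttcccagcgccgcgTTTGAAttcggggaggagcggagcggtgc
CKS2: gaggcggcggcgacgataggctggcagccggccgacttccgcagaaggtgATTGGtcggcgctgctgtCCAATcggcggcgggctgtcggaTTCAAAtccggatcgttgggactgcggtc
HMMR: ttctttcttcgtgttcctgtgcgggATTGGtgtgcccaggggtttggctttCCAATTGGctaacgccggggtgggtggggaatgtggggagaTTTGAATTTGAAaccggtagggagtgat
CCNB2: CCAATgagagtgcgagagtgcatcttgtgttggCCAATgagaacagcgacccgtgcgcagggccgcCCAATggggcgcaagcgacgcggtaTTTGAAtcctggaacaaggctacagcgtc
CDC25C: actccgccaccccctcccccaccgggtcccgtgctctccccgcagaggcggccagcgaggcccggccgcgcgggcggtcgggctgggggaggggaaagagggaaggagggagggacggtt
BUB1: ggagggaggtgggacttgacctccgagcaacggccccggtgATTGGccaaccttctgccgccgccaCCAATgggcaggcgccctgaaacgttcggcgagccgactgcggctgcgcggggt
ANLN: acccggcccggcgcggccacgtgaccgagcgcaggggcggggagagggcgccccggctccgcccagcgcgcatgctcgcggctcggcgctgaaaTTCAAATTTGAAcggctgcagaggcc
CENPK: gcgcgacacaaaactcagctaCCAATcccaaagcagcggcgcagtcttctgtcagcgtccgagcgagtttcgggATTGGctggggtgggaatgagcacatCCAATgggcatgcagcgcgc
In PLK1, CKS2 and CCNB2 the CHR begins 29 bases before the start of the gene, and HMMR and ANLN each carry a pair of adjoining CHRs near that place. ANLN has no CCAAT box in these bases, CENPK has 3 CCAAT boxes and no CHR, and BUB1 has 2 CCAAT boxes here and a CHR just past its start, outside the printed bases. Among other genes that fell, KIF2C, CENPE and CDC25B also have neither element in their windows. KIF20A, CCNA2, CCNB1, AURKB and PTTG1 fell too and have a CCAAT match but no CHR. A match is a run of letters and does not show that a protein binds there. The median log2 fold change of OBF1 shRNA over control shRNA was -0.38 for the 35 genes with a CHR and -0.24 for those without, and -0.07 and 0.01 for all tested genes with and without one. The order was the reverse for a CCAAT box (-0.25 with and -0.41 without) and for an E2F element (-0.27 with and -0.38 without). All tested genes did not share that reverse order, at -0.011 with and 0.005 without a CCAAT box and -0.029 with and 0.006 without an E2F element. For CHR and CCAAT box together the median of the mitotic genes was -0.345 with and -0.286 without. These differences between medians were not tested.

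Most mitotic genes were lower in OBF1 shRNA cells, by modest amounts. Of the 56 genes, 51 fell, 3 rose (BUB1, CENPK and ANLN) and 2 did not pass the test (SPC24 and NCAPH), by edgeR's quasi-likelihood test with Benjamini-Hochberg adjustment over all 12010 tested genes and a threshold of 0.05. The 51 genes that fell are 91.1% of the 56, whereas 37.9% of all tested genes were called lower, 37.5% higher and 75.4% in either direction. Because the 56 genes were chosen with earlier results of these data known, this contrast is a description and not a test. With library sizes alone in place of composition factors, 5778 tested genes were called lower and 3476 higher, against 4550 and 4508 in the main test, and 52 of the 56 mitotic genes were called lower and 1 higher. The median log2 fold change was -0.35 over the 56 genes and -0.01 over all tested genes, with quartiles of -0.49 and -0.20 for the 56 and -0.29 and 0.30 for all. Fewer cells in mitosis and less of these RNAs per cell cannot be told apart in bulk RNA.

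The typical change was somewhat larger than over all tested genes, with a median absolute log2 fold change of 0.372 over the 56 genes and 0.294 over all, but large changes were absent. None of the 56 genes changed by as much as 2-fold, while 11.0% of all tested genes had an estimated change of at least that size. Genes called lower by at least 1.25-fold were 30 of the 56 (53.6%) and 21.3% of all tested genes. At 1.5-fold or more they were 7 of the 56 (12.5%), a share near the 10.4% of all tested genes. When a change beyond 1.2-fold was itself tested with glmTreat, 31 of the 56 genes (55.4%) were called lower, against 19.4% of all tested genes, and BUB1 alone was called higher, against 21.3%. The 3 OBF1 shRNA libraries lay below all 3 control shRNA libraries for 51 of the 56 genes and for 38.7% of all tested genes. Summed over the 56 genes, normalised CPM (reads relative to the composition-scaled library size) were 7862, 8077 and 7909 in OBF1 shRNA libraries and 10051, 10140 and 10202 in control shRNA libraries. These groups did not overlap, and the OBF1 shRNA mean was 1.27-fold lower.

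**Figure D1:**
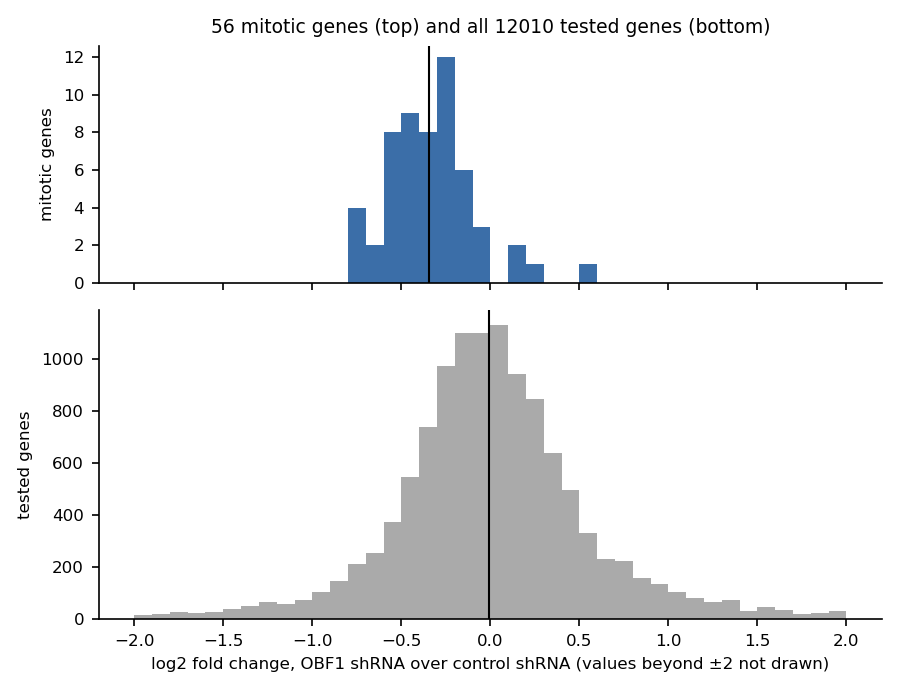
Number of genes (vertical axes) by log2 fold change of OBF1 shRNA over control shRNA (horizontal axis) for the 56 mitotic genes (top) and all 12010 tested genes (bottom), with the median as a black line and values past the axis limits not drawn. The mitotic genes centre on -0.35 and none lies below -0.78, while all tested genes centre on -0.01 with longer tails.

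The targeted transcript POU2AF1 was at 244, 241 and 241 CPM in OBF1 shRNA libraries and 512, 516 and 512 CPM in control shRNA libraries, or 2.12-fold lower. Library totals ran between 29569281 and 32612429 reads and overlapped between the groups, and each of the 56 genes passed the filter on low counts, with between 109 and 22998 reads per library. The composition factors did not overlap, at 0.961 to 0.966 in OBF1 shRNA and 1.03 to 1.04 in control shRNA libraries; without them every log2 fold change is shifted by -0.11. All 10 B cell markers and all 10 germinal centre markers were above 1 CPM in every library, but their sums differed between the groups. B cell markers summed to 11700 to 11900 CPM in OBF1 shRNA and 5430 to 5670 CPM in control shRNA libraries. Germinal centre markers summed to 1480 to 1490 CPM in OBF1 shRNA and 1970 to 1980 CPM in control shRNA libraries. Markers of other cells stood near 0. Of 10 myeloid markers, 9 were below 1 CPM in every library (S100A9, MPO and ELANE at 0), and they summed to 1.97 to 2.23 CPM in OBF1 shRNA and 2.27 to 2.32 CPM in control shRNA libraries. All 10 T and NK cell markers were below 1 CPM (CD3D, CD2, GNLY and TRAT1 at 0), summing to 1.06 to 1.21 CPM in OBF1 shRNA and 0.224 to 0.381 CPM in control shRNA libraries. For the 293T cells that packaged the virus, 9 of 10 markers were below 1 CPM (SIX2, LHX1, EMX2, GATA2 and KRT18 at 0), summing to 5.08 to 6.33 CPM in OBF1 shRNA and 4.09 to 4.91 CPM in control shRNA libraries.

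CDK1 and the genes that act with it or on it fell in 7 of 7 cases, with a median log2 fold change of -0.29. Of all tested genes, 37.9% were called lower, and for 38.7% the OBF1 shRNA libraries all lay below the control libraries. These shares stand beside every role below. CDK1, the kinase that drives cells into mitosis, had 164, 161 and 164 CPM in OBF1 shRNA libraries and 179, 178 and 174 CPM in control shRNA libraries. The groups did not overlap, but the difference was only 1.08-fold (log2 fold change -0.12, SE 0.03, edgeR adjusted p = 0.000647), the smallest of the 7. CCNB1, cyclin B1, was 1.19-fold lower (edgeR adjusted p = 4.49e-07), and CCNA2, cyclin A2, was 1.17-fold lower. Cyclin B2, CCNB2, fell further, with 101, 103 and 101 CPM in OBF1 shRNA libraries and 132, 134 and 131 CPM in control shRNA libraries, or 1.30-fold lower. The small CDK-binding subunit CKS2 had 131, 136 and 134 CPM in OBF1 shRNA libraries and 193, 200.4 and 198 CPM in control shRNA libraries. That was 1.47-fold lower (edgeR adjusted p = 2.65e-12), far outside the spread of the libraries.

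The phosphatases that activate CDK1 differed in level and in change. CDC25C had 5.59, 5.71 and 5.71 CPM in OBF1 shRNA libraries and 8.87, 10.6 and 9.71 CPM in control shRNA libraries. Every OBF1 shRNA library was below every control library, and at 1.72-fold lower (log2 fold change -0.78, SE 0.09, edgeR adjusted p = 2.32e-07) it had the largest estimated change of the 56 genes, at the lowest level per length. CDC25B was 1.22-fold lower. Per length, as CPM per kilobase of gene length (RPKM), CDC25B was at 27.0 ± 0.661 RPKM in OBF1 shRNA and 32.9 ± 0.353 RPKM in control shRNA cells, and CDC25C at 1.91 ± 0.0227 RPKM in OBF1 shRNA and 3.27 ± 0.290 RPKM in control shRNA cells (SD, n = 3 each), so CDC25B was the far more abundant of the pair in both groups.

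**Figure D2:**
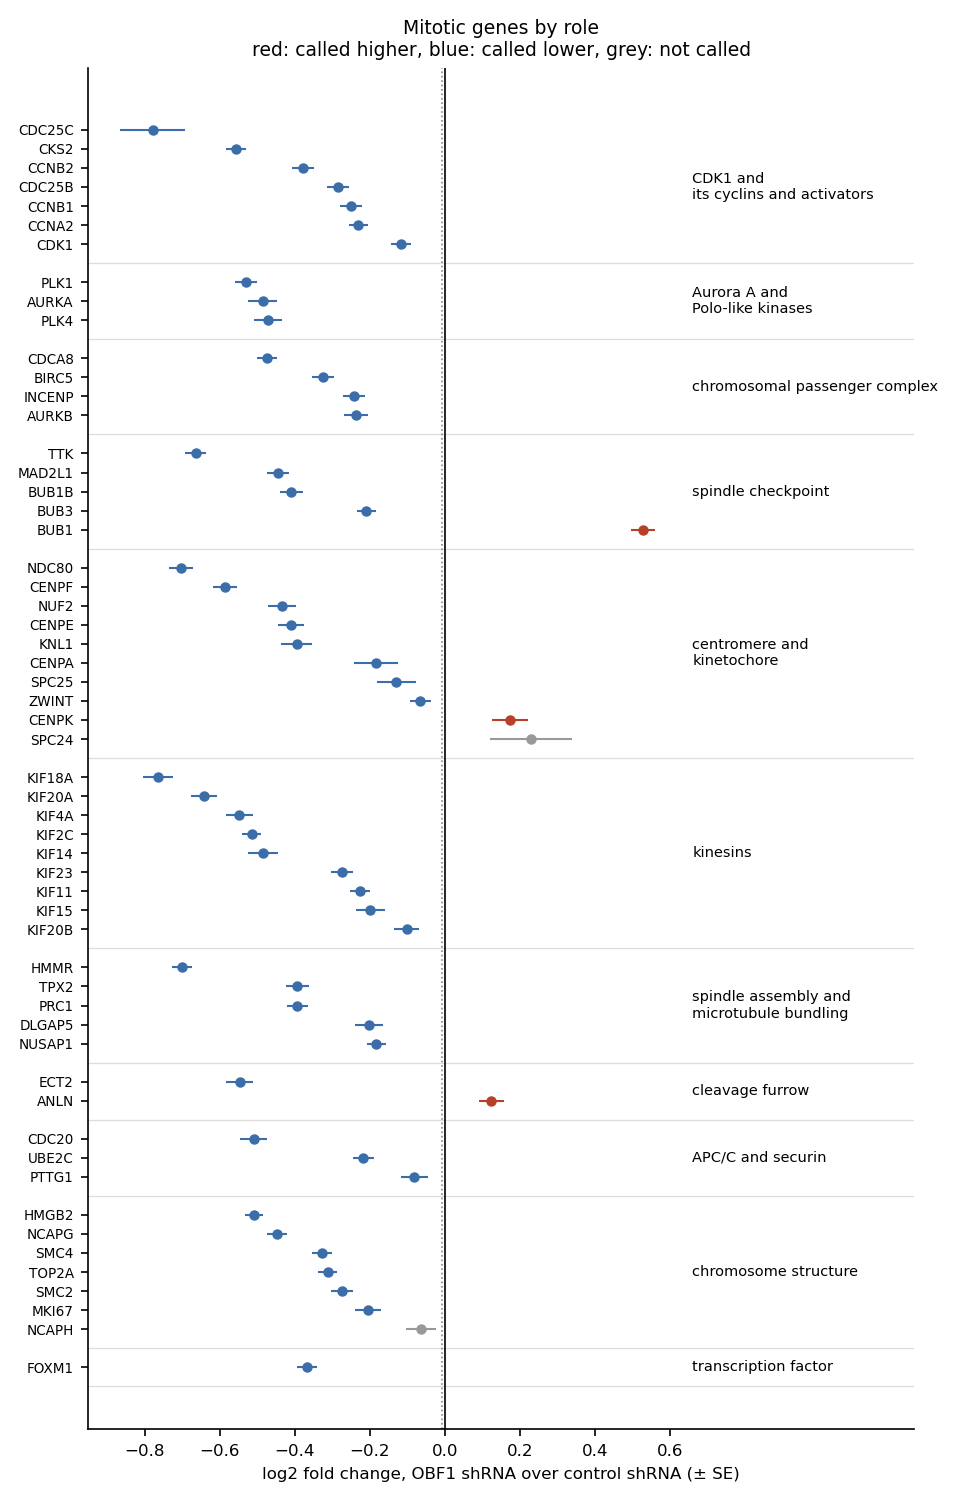
Log2 fold change of OBF1 shRNA over control shRNA (horizontal axis, bars are the standard error) for each of the 56 mitotic genes, grouped by role, with genes called higher in red, called lower in blue and not called in grey. All 7 genes around CDK1 and all 9 kinesins lie left of 0, and BUB1, at 0.53, lies farthest to the right.

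The kinases of centrosomes and spindle poles fell in 3 of 3 cases, against 37.9% of all tested genes, and by similar amounts. PLK1, the Polo-like kinase needed for mitotic entry and spindle assembly, had 117, 117 and 122 CPM in OBF1 shRNA libraries and 169, 174 and 171 CPM in control shRNA libraries. It was 1.44-fold lower (edgeR adjusted p = 7.62e-12). Aurora A, AURKA, which matures centrosomes, had 46.6, 47.7 and 47.5 CPM in OBF1 shRNA libraries and 62.9, 68.1 and 67.7 CPM in control shRNA libraries, or 1.40-fold lower. PLK4, which starts centriole duplication, was 1.39-fold lower, so the 3 log2 fold changes lay between -0.53 and -0.47 with no overlap of groups for any of them. For 38.7% of all tested genes the OBF1 shRNA libraries likewise all lay below the control libraries.

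All 4 subunits of the chromosomal passenger complex fell, against 37.9% of all tested genes. The complex corrects wrong attachments at the inner centromere and later moves to the spindle midzone. Its kinase Aurora B, AURKB, had 76.2, 76.7 and 75.1 CPM in OBF1 shRNA libraries and 90.4, 90.9 and 87.4 CPM in control shRNA libraries, or 1.18-fold lower (edgeR adjusted p = 2.84e-06). The scaffold INCENP was 1.18-fold lower and survivin, BIRC5, 1.25-fold lower. Borealin, CDCA8, fell most, 1.39-fold lower, at 161 ± 2.09 CPM in OBF1 shRNA and 223 ± 4.35 CPM in control shRNA libraries (SD, n = 3 each). The level of AURKB over INCENP per length was 2.40 ± 0.0365 in OBF1 shRNA and 2.39 ± 0.0561 in control shRNA libraries (SD, n = 3 each), a difference smaller than the spread. AURKB over AURKA per length was 3.02 ± 0.0493 in OBF1 shRNA and 2.54 ± 0.141 in control shRNA libraries (SD, n = 3 each), and was higher in all 3 OBF1 shRNA libraries.

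The spindle checkpoint divided: 4 of its 5 genes fell, against 37.9% of all tested genes, and BUB1 rose, against 37.5%. BUB1, a checkpoint kinase that also marks the centromere for shugoshin, had 147, 138 and 146 CPM in OBF1 shRNA libraries and 98.1, 99.5 and 101 CPM in control shRNA libraries. The lowest OBF1 shRNA library stood well above the highest control library, and the gene was 1.44-fold higher (log2 fold change 0.53, SE 0.03, edgeR adjusted p = 4.96e-11). Its relative BUB1B, which encodes BubR1 of the complex that inhibits the anaphase-promoting complex, went the other way, with 168, 179 and 173 CPM in OBF1 shRNA libraries against 221, 234 and 236 CPM in control shRNA libraries. It was 1.33-fold lower, so BUB1 over BUB1B per length was 0.739 ± 0.0490 in OBF1 shRNA and 0.386 ± 0.00860 in control shRNA libraries (SD, n = 3 each).

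TTK, the kinase MPS1 that starts checkpoint signalling, had 122, 126 and 124 CPM in OBF1 shRNA libraries and 193, 197 and 199.7 CPM in control shRNA libraries. It was 1.58-fold lower (edgeR adjusted p = 2.16e-13), the largest fall among checkpoint genes. MAD2L1, which encodes MAD2 of the same inhibitor as BubR1, was 1.36-fold lower, and BUB3, which brings BUB1 and BubR1 to kinetochores, was 1.16-fold lower. The groups did not overlap for any of the 5 genes, while 38.7% of all tested genes had every OBF1 shRNA library below every control library.

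**Figure D3:**
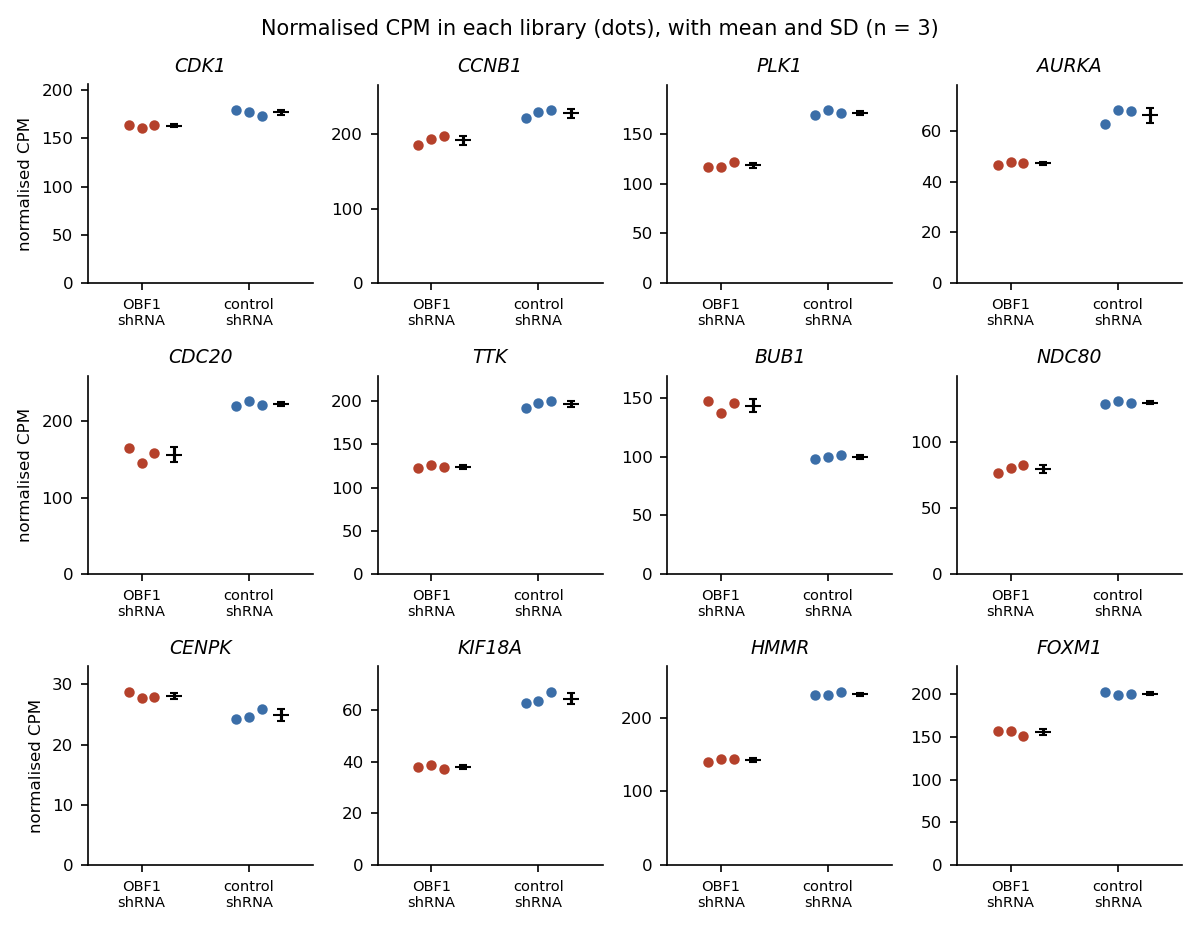
Normalised CPM (vertical axes, from 0) of 12 mitotic genes in each OBF1 shRNA and control shRNA library (dots, 3 per group), with mean and SD in black. BUB1 and CENPK are higher in all 3 OBF1 shRNA libraries and the other 10 genes are lower, with no overlap of the groups in any panel. Of all tested genes, 38.7% had every OBF1 shRNA library below every control library.

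At the centromere and kinetochore 8 of 10 genes fell, against 37.9% of all tested genes, CENPK rose and SPC24 was not called. Subunits of the NDC80 complex, which grips microtubules, changed by different amounts. NDC80 had 76.0, 80.0 and 81.9 CPM in OBF1 shRNA libraries and 128, 130.3 and 129 CPM in control shRNA libraries. It was 1.63-fold lower (edgeR adjusted p = 9.75e-13), and NUF2, its partner in the microtubule-binding arm, was 1.35-fold lower, at 54.7 ± 1.96 CPM in OBF1 shRNA and 74.0 ± 1.55 CPM in control shRNA libraries (SD, n = 3 each). NDC80 over NUF2 per length was 1.33 ± 0.0145 in OBF1 shRNA and 1.6 ± 0.0402 in control shRNA libraries (SD, n = 3 each).

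The subunits of the inner arm of that complex differed little. SPC25 had 23.8, 22.1 and 23.9 CPM in OBF1 shRNA libraries and 24.7, 26.6 and 24.98 CPM in control shRNA libraries. This was a weak call (log2 fold change -0.13, SE 0.05, edgeR adjusted p = 0.0313), lost with DESeq2 (adjusted p = 0.0994), without OBF1 shRNA replicate 2 (edgeR adjusted p = 0.154) and without control shRNA replicate 2 (edgeR adjusted p = 0.151). SPC24, the gene with the lowest CPM of the 56, had 4.33, 4.69 and 4.47 CPM in OBF1 shRNA libraries and 3.49, 4.23 and 3.78 CPM in control shRNA libraries. The OBF1 shRNA libraries were all above the control libraries, yet the gene was not called (log2 fold change 0.23, SE 0.11, edgeR adjusted p = 0.0659); without control shRNA replicate 2 it was called higher (log2 fold change 0.31, edgeR adjusted p = 0.0277). SPC24 over SPC25 per length was 0.399 ± 0.0330 in OBF1 shRNA and 0.310 ± 0.0180 in control shRNA libraries (SD, n = 3 each).

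Other kinetochore genes ranged widely. CENPF, a large protein of the outer corona, had 322, 358 and 330.1 CPM in OBF1 shRNA libraries and 508, 498 and 511 CPM in control shRNA libraries, or 1.5-fold lower. The corona motor CENPE was 1.33-fold lower, and the scaffold KNL1, which carries docking sites for BUB1 with BUB3, was 1.31-fold lower. For these 3 genes OBF1 shRNA replicate 2 was the highest library of its group and still below every control library. CENPA, the histone H3 variant that defines the centromere, differed less, with 14.8, 15.6 and 16.2 CPM in OBF1 shRNA libraries and 17.3, 18.2 and 17.6 CPM in control shRNA libraries (log2 fold change -0.18, edgeR adjusted p = 0.00874).

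The smallest changes at the kinetochore depended on the processing. ZWINT, which binds KNL1, had 142, 139.7 and 139.7 CPM in OBF1 shRNA libraries and 150.2, 146 and 145 CPM in control shRNA libraries. Its call as 1.05-fold lower (edgeR adjusted p = 0.0382) was lost with DESeq2 (adjusted p = 0.0912) and whichever library was left out (edgeR adjusted p between 0.0506 and 0.176). CENPK, a subunit of the inner kinetochore network, had 28.7, 27.7 and 27.9 CPM in OBF1 shRNA libraries and 24.2, 24.6 and 26.0 CPM in control shRNA libraries. It was 1.13-fold higher with no overlap of the groups (edgeR adjusted p = 0.00333), but with library sizes alone it was not called (log2 fold change 0.06, edgeR adjusted p = 0.232).

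**Figure D4:**
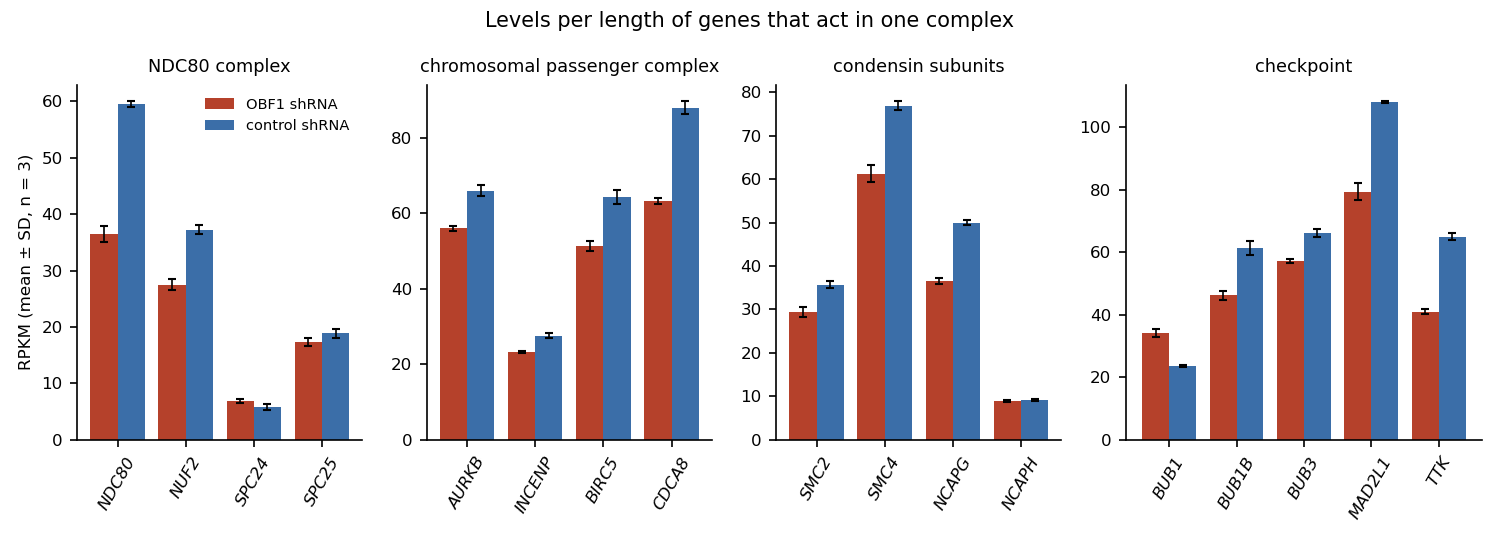
RPKM (vertical axes, from 0; mean and SD, n = 3) of subunits of the NDC80 complex, the chromosomal passenger complex and condensin and of checkpoint genes in OBF1 shRNA (red) and control shRNA (blue) libraries. NDC80 stands at 36.5 RPKM in OBF1 shRNA against 59.5 in control shRNA libraries and SPC25 at 17.3 against 18.9, and BUB1 is the checkpoint gene with the taller OBF1 shRNA bar.

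All 9 kinesins fell, against 37.9% of all tested genes, with a median log2 fold change of -0.48. KIF18A, which damps chromosome movements at kinetochore microtubule ends, had 38.0, 38.5 and 37.1 CPM in OBF1 shRNA libraries and 62.9, 63.3 and 66.8 CPM in control shRNA libraries. It was 1.70-fold lower (edgeR adjusted p = 4.94e-12). KIF20A, which carries the passenger complex to the midzone, had 50.7, 52.5 and 52.3 CPM in OBF1 shRNA libraries and 80.5, 81.8 and 80.1 CPM in control shRNA libraries, or 1.56-fold lower. Both stood far outside the spread of the libraries. The chromokinesin KIF4A was 1.46-fold lower, the microtubule depolymerase KIF2C (MCAK) 1.43-fold lower and KIF14, which acts with citron kinase in cytokinesis, 1.40-fold lower.

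The motors that push spindle poles apart changed less. KIF11 (Eg5) had 184, 190.2 and 187 CPM in OBF1 shRNA libraries and 215, 219 and 222 CPM in control shRNA libraries, or 1.17-fold lower, and KIF15 was 1.15-fold lower. KIF23, the motor of centralspindlin, was 1.21-fold lower. KIF20B, a midzone motor, was 1.07-fold lower, with 119, 129.5 and 122 CPM in OBF1 shRNA libraries and 131, 131 and 136 CPM in control shRNA libraries. Its OBF1 shRNA replicate 2 came close to the control libraries, and the call (edgeR adjusted p = 0.0102) was lost without OBF1 shRNA replicate 1 (edgeR adjusted p = 0.0712) or control shRNA replicate 3 (edgeR adjusted p = 0.0767).

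Spindle assembly genes fell in 5 of 5 cases, against 37.9% of all tested genes. HMMR, a hyaluronan receptor that also works at spindle poles, had 139, 144 and 144 CPM in OBF1 shRNA libraries and 230.1, 231 and 234 CPM in control shRNA libraries. It was 1.63-fold lower, with the smallest adjusted p of the 56 genes (edgeR adjusted p = 4.46e-14). TPX2, which activates Aurora A on spindle microtubules, had 331, 363 and 356 CPM in OBF1 shRNA libraries and 449.7, 463 and 467 CPM in control shRNA libraries, or 1.31-fold lower. PRC1, which bundles antiparallel microtubules of the midzone, was also 1.31-fold lower. The groups lay apart for each of them, and DLGAP5 (HURP), a binder of kinetochore fibres, and the microtubule bundler NUSAP1 differed less, at 1.15-fold lower and 1.14-fold lower.

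The genes of the cleavage furrow went in opposite directions. ECT2, the exchange factor that activates RhoA at the cell equator, had 68.3, 64.0 and 65.4 CPM in OBF1 shRNA libraries and 99.4, 93.5 and 96.1 CPM in control shRNA libraries. It was 1.46-fold lower (edgeR adjusted p = 1.5e-10). Anillin, ANLN, the scaffold of the contractile ring, had 87.4, 84.9 and 83.6 CPM in OBF1 shRNA libraries against 78.0, 77.3 and 79.5 CPM in control shRNA libraries. It was 1.09-fold higher with no overlap of the groups (edgeR adjusted p = 0.00236), but with library sizes alone it was not called (log2 fold change 0.01, edgeR adjusted p = 0.697).

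Around the anaphase-promoting complex 3 of 3 genes fell, against 37.9% of all tested genes. CDC20, which activates the complex and brings it substrates, had 166, 146 and 158 CPM in OBF1 shRNA libraries and 221, 226 and 222 CPM in control shRNA libraries. It was 1.42-fold lower (edgeR adjusted p = 4.04e-10). UBE2C, the enzyme that starts ubiquitin chains on those substrates, was 1.16-fold lower, at 110.0 ± 1.57 CPM in OBF1 shRNA and 128 ± 2.37 CPM in control shRNA libraries (SD, n = 3 each). Securin, PTTG1, which keeps separase inactive until anaphase, had 62.3, 63.8 and 66.0 CPM in OBF1 shRNA libraries and 67.0, 67.5 and 68.8 CPM in control shRNA libraries. Its groups nearly touched, and its call as 1.06-fold lower (edgeR adjusted p = 0.0456) was lost with DESeq2 (adjusted p = 0.117) and when any library but OBF1 shRNA replicate 3 was left out (edgeR adjusted p between 0.0681 and 0.172). PTTG1 over CDC20 per length was 0.882 ± 0.0671 in OBF1 shRNA and 0.654 ± 0.0130 in control shRNA libraries (SD, n = 3 each).

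Chromosome structure genes fell in 6 of 7 cases, against 37.9% of all tested genes. HMGB2, a DNA-bending protein whose RNA was the most abundant of the 56 per length, had 444, 429.7 and 434 CPM in OBF1 shRNA libraries and 617, 627 and 616 CPM in control shRNA libraries. It was 1.42-fold lower (edgeR adjusted p = 1.22e-12). TOP2A, which untangles sister chromatids, was 1.24-fold lower, at 550.2 ± 15.6 CPM in OBF1 shRNA and 683 ± 9.67 CPM in control shRNA libraries (SD, n = 3 each). MKI67, the proliferation marker Ki-67 that coats mitotic chromosomes, had 514, 561 and 499 CPM in OBF1 shRNA libraries and 610.3, 586 and 616 CPM in control shRNA libraries. It was 1.15-fold lower, and OBF1 shRNA replicate 2 came closest to the control libraries.

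Condensin subunits differed in their changes. NCAPG was 1.36-fold lower, and the ATPases SMC2 and SMC4, shared by both condensins, were 1.21-fold lower and 1.25-fold lower. NCAPH, the kleisin of condensin I, to which NCAPG also belongs, had 41.0, 43.0 and 42.2 CPM in OBF1 shRNA libraries and 43.0, 44.0 and 45.0 CPM in control shRNA libraries. These groups overlapped and NCAPH was not called (log2 fold change -0.06, SE 0.04, edgeR adjusted p = 0.154), although with library sizes alone it was called lower (log2 fold change -0.17, edgeR adjusted p = 0.000791). NCAPG over NCAPH per length was 4.14 ± 0.103 in OBF1 shRNA and 5.40 ± 0.125 in control shRNA libraries (SD, n = 3 each).

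FOXM1, the transcription factor that drives late cell cycle genes, had 157, 157 and 151 CPM in OBF1 shRNA libraries and 202, 199 and 200.3 CPM in control shRNA libraries. It was 1.29-fold lower (edgeR adjusted p = 6.87e-10). In a list of 12 other genes of the DREAM and MuvB complexes 7 fell and 3 rose, while 37.9% of all tested genes were called lower and 37.5% higher. TFDP2, a dimer partner of E2F factors, had the smallest p among those that fell, at 104 CPM in OBF1 shRNA and 139.5 CPM in control shRNA libraries (log2 fold change -0.43), and E2F4, the E2F typical of DREAM, the smallest among those that rose, at 157 CPM in OBF1 shRNA and 112 CPM in control shRNA libraries (log2 fold change 0.49, edgeR adjusted p = 1.36e-11). MYBL2, which encodes B-MYB and is named with its values already known, was 1.17-fold lower, at 747 ± 3.71 CPM in OBF1 shRNA and 875 ± 21.6 CPM in control shRNA libraries (SD, n = 3 each).

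Other genes of mitosis were read from lists that were, like the 56 genes, drawn up with earlier results of these data known. Over 151 tested genes 92 fell, 29 rose and 30 were not called, with a median log2 fold change of -0.15. With library sizes alone 111 fell and 19 rose. Over all tested genes 37.9% were called lower and 37.5% higher, the shares to set beside each list. Of 17 genes of cohesin and its release 15 fell and 2 rose. RAD21, the cohesin subunit that separase cuts, was 1.47-fold lower, at 406 ± 6.82 CPM in OBF1 shRNA and 595 ± 14.5 CPM in control shRNA libraries (SD, n = 3 each), and ESCO2, which acetylates cohesin, was 1.24-fold higher. Centriole and centrosome genes fell in 10 of 12 cases, led by the centrosome kinase NEK2 (1.66-fold lower), and centrin 2, CETN2, was the 1 that rose (1.28-fold higher). Of 23 other spindle and kinesin genes 15 fell and 3 rose. The microtubule polymerase CKAP5 was 1.44-fold lower, at 346 CPM in OBF1 shRNA and 499.7 CPM in control shRNA libraries, and TUBG1, gamma-tubulin of the nucleating ring, was 1.48-fold higher, at 50.5 CPM in OBF1 shRNA and 34.1 CPM in control shRNA libraries.

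At the kinetochore, 9 of 20 genes of CENP-A loading and the inner kinetochore fell and 5 rose. Over all tested genes 37.9% were called lower and 37.5% higher. With library sizes alone 13 of the 20 were called lower and 4 higher. CENPI, like CENPK, is a subunit of the inner kinetochore network. It was 1.61-fold higher, with 22.5, 23.9 and 23.4 CPM in OBF1 shRNA libraries against 14.0, 14.5 and 14.9 CPM in control shRNA libraries. Of 16 outer kinetochore and checkpoint partners 11 fell and 1 rose. SKA1, which couples kinetochores to microtubules beside the NDC80 complex, was 1.80-fold lower, with 30.1, 33.8 and 32.4 CPM in OBF1 shRNA libraries and 57.5, 56.6 and 59.2 CPM in control shRNA libraries, and SPAG5 (astrin) was the 1 that rose, 1.06-fold higher. With library sizes alone none of these 16 was called higher and 14 were called lower. Condensin partners fell in 3 of 4 cases, with NCAPD2 1.2-fold lower.

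Subunits and regulators of the anaphase-promoting complex stood near the shares over all tested genes (37.9% lower and 37.5% higher): 7 of 17 fell, 6 rose and the median log2 fold change was 0.01. CDC23, a core subunit, was 1.29-fold lower, and ANAPC15, a subunit that helps to turn over the checkpoint inhibitor, was 1.37-fold higher; with library sizes alone 9 were called lower and 1 higher. Of 9 cytokinesis partners 3 fell and 4 rose, also near those shares, and 5 were called lower and 2 higher with library sizes alone. RACGAP1, the partner of KIF23 in centralspindlin, was 1.31-fold lower, and RHOA, the GTPase that ECT2 activates, was 1.15-fold higher, at 462 ± 9.03 CPM in OBF1 shRNA and 403 ± 1.83 CPM in control shRNA libraries (SD, n = 3 each). Among 15 inhibitors of CDK1, mitotic phosphatases and related genes 8 fell and 4 rose. CKS1B, the other CDK-binding subunit of the CKS pair, was 1.97-fold lower, with 38.8, 35.5 and 36.5 CPM in OBF1 shRNA libraries and 71.8, 72.2 and 73.6 CPM in control shRNA libraries, a larger estimated change than that of any of the 56 genes, and PPP1CA, a catalytic subunit of protein phosphatase 1, was 1.39-fold higher.

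**Figure D5:**
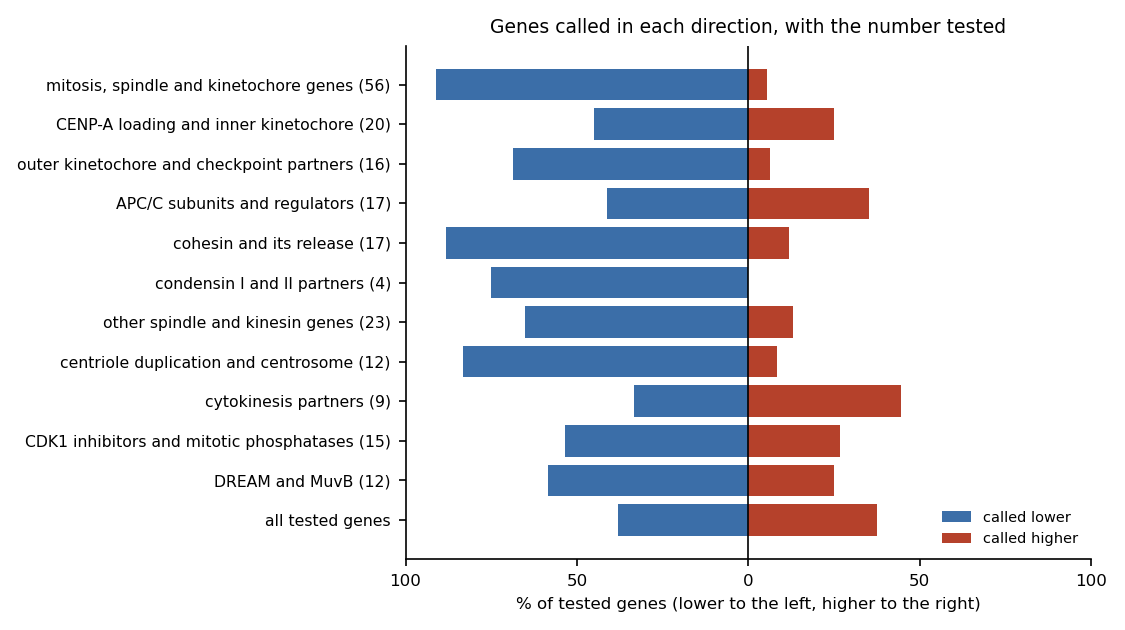
Share of tested genes (horizontal axis, %) called lower (blue, to the left) and called higher (red, to the right) by edgeR for the 56 mitotic genes, for 10 lists of other mitotic genes with the number tested in brackets, and for all tested genes. The 56 genes stand at 91.1% lower, and all tested genes at 37.9% lower and 37.5% higher.

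Reads of some of the 56 genes could be shared with near copies or overlapping genes, since how the authors counted such reads and whether by strand is not given in the sources used here. KIF4B, a copy of KIF4A, was at 6.19 CPM in OBF1 shRNA and 9.28 CPM in control shRNA libraries and fell like it (log2 fold change -0.59, edgeR adjusted p = 1.05e-05). PTTG2 and PTTG3P, copies of PTTG1, were at 1.59 CPM in OBF1 shRNA and 1.33 CPM in control shRNA libraries and at 3.50 CPM in OBF1 shRNA and 3.89 CPM in control shRNA libraries, and neither was called (edgeR adjusted p = 0.236 and 0.271). In GENCODE 29, exons of NCAPG overlap those of LCORL on the opposite strand over 35.0% of their bases, SMC4 those of TRIM59 over 23.9% and CDC25C those of FAM53C over 10.7%. NUSAP1 and PRC1 share 72.8% and 65.2% of their exonic bases with clone-named genes of the same strand. Values of these genes are uncertain to that extent.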

How the data were processed

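RNA sequencing libraries of Raji cells with an OBF1 shRNA (3) or a control shRNA (3) were compared. The authors deposited raw read counts per gene with gene lengths; the library kit selects poly(A) RNA and keeps strand, per the labels' protocols. The submitters' processing notes list the builds hg19 and mm9; the aligner, counting tool, annotation and strand setting are not given in the sources used. Of 23459 rows, 23308 matched a symbol in a RefSeq table (GRCh38.p14), and 0 other columns were left out.

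In R 4.3.3, edgeR 4.0.16 was used with filterByExpr (min.count 10, min.total.count 15), TMM scaling and the quasi-likelihood F test over 12010 genes on all 6 libraries, with Benjamini-Hochberg adjustment and a threshold of 0.05; the script was tested on simulated data. The SE is the log2 fold change over the square root of F. CPM uses TMM-scaled library sizes, and RPKM divides it by the deposited length. Total counts ran between 29569281 and 32612429 per library. Chi-square per degree of freedom between libraries of a group was 1.88 to 3.28, more than counting noise alone.

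Members and lists were chosen with earlier results of these data known. The genes named are the 56 members, POU2AF1, near copies, and in each list of other mitotic genes the called gene with the smallest p in each direction. A gene that this rule names is not reported here. Promoters are from RefSeq; protein sequences were not used here. Alternatives were DESeq2 1.42.0, limma-voom 3.58.1, glmTreat against 1.2-fold, upper-quartile or RLE factors, scaling by library sizes alone, testing without the low-count filter or with 1 CPM in 3 libraries as the filter, a block for the replicate number, and each library left out in turn.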

Additional observations from a re-analysis of the deposited data

How the results depend on the processing

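Of the 56 mitotic genes, 48 kept their direction and their side of the threshold in all 14 settings other than glmTreat, and none reversed. Testing against 1.2-fold with glmTreat left 4882 genes called in all and 32 of the 56, where 9058 and 54 were called in the main test. The median log2 fold change of the 56 genes was -0.35, with -0.37 under upper-quartile factors and -0.46 with library sizes alone. DESeq2 called 8344 genes in all and 51 of the 56, and limma-voom 9040 and 54. Leaving out each library gave 8632 to 8974 genes in all, 51 to 53 of the 56 and medians between -0.36 and -0.33. The replicate numbers showed no pairing of the libraries, which so few libraries cannot exclude. Deviations from the group means correlated by 0.01, -0.12 and -0.06 between libraries of the same number, and by -0.05 to 0.11 between others. With the replicate block, 8759 genes in all and 51 of the 56 were called, the median was -0.35, and the calls of SPC25, ZWINT and PTTG1 were lost (adjusted p = 0.0628, 0.0587 and 0.0614). RLE factors and no low-count filter also lost ZWINT (edgeR adjusted p = 0.052 and 0.1) and PTTG1 (0.0582 and 0.101); the cause was not tested. The common biological coefficient of variation of 0.0269 is the spread between these libraries, so small changes pass the test and their calls depend on scaling.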

Other observations

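Across the 56 mitotic genes, the level per length and the log2 fold change had a Spearman correlation of -0.11, and gene length and the log2 fold change one of -0.02. These are descriptions across genes that share the same 6 libraries, and genes are not independent replicates. The 56 genes ranged between 2.59 RPKM (CDC25C) and 319 RPKM (HMGB2) over all libraries, with a median of 40.9 RPKM. In their promoter windows, the median log2 fold change was -0.25 for genes with a CCAAT box and -0.41 for genes without, and -0.27 for genes with an E2F element and -0.38 for genes without. The order was the other way for a CHR (-0.378 with and -0.243 without) and for CHR and CCAAT box together (-0.345 with and -0.286 without). None of these differences was tested.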
